A study of Mus musculus with 12 samples.

Results

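The response of wild-type mouse kidney to GW4064 was measured in 6 of the 12 RNA-seq libraries of the series, 3 from mice given GW4064 and 3 from mice given vehicle. Genes were included where their level reached at least 1 TPM (a length-corrected share of the transcripts in a library, scaled to a total of 1000000) in at least 3 of these 6 libraries, which kept 14166 of 24532 gene identifiers. The wild-type mice carried the strain label C57BL/6, and mice of the series had been fasted overnight. The GW4064 libraries were labelled with a treatment time of 6 h and the vehicle libraries with none. The other 6 libraries came from FXR knockout mice with the strain label Nr1h4tm1Gonz/J, 3 given vehicle and 3 given GW4064 for 6 h, and were used here to estimate the spread and to test whether a response differed from that of the knockout. Dose, route, sex and age are not among the labels, and no library was labelled as given cisplatin, the nephrotoxic drug in the series title. RNA came from kidney as labelled, with no cell type separated. No label ties a library to an animal, so p-values here describe the spread between libraries, which may be technical.

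The farnesoid X receptor (FXR, encoded by Nr1h4) is a nuclear receptor that binds bile acids and switches on genes that limit their accumulation. GW4064 is a synthetic agonist of FXR. In liver and intestine FXR induces Nr0b2, a repressor of bile acid synthesis, and the basolateral bile acid exporter made of the Slc51a and Slc51b subunits. In kidney the receptor is abundant in the proximal tubule, the segment that takes up sugars, amino acids, sulfate, organic acids and bile acids from the filtrate, makes glucose during fasting and makes active vitamin D.

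Slc51a and Slc51b, with Tm4sf4, a tetraspanin-like membrane protein, mark the response and were examined first. Slc51a stood at 48.1, 41.9 and 36.4 TPM in the vehicle libraries and at 514, 427 and 431 TPM in the GW4064 libraries. Slc51b stood at 56.9, 45.9 and 44.9 TPM with vehicle and at 382, 349.5 and 303 TPM with GW4064. Tm4sf4 stood at 1.61, 0.981 and 1.52 TPM with vehicle and at 35.1, 25.2 and 18.0 TPM with GW4064. For all 3 genes every GW4064 library lay above every vehicle library. On the log2(TPM + 0.5) scale, which understates the change of genes at low levels, the rise was 3.43 ± 0.12 (standard error, n = 3 libraries per group) for Slc51a, 2.80 ± 0.13 for Slc51b and 3.80 ± 0.31 for Tm4sf4, with adjusted p = 8.81e-08, 6.3e-07 and 4.45e-05 in limma. In the knockout the same genes changed by -0.40, -0.25 and -0.21 on this scale, and the response differed between genotypes (interaction, adjusted p = 1.28e-06, 9.69e-06 and 0.00083 in limma). The 3 markers matched the labels of the wild-type libraries by value. They were fixed as markers with earlier results of these data known, so this is no independent check of the labels.

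The 250 bases upstream of the annotated start of these genes, and of B4galt5, which rose without being a bile acid transporter, are shown because FXR is known to bind inverted repeats of a hexamer separated by 1 base. The sequences are from RefSeq on GRCm38.p6, written 5′ to 3′ on the strand of the gene. Capitals mark the closest match to the repeat AGGTCANTGACCT with up to 3 of its 12 fixed letters changed. Each sequence shown holds such a match, against 9 of 38 genes with a promoter entry that rose at least 2-fold. The sequences are therefore not a typical set of the genes that rose. The Slc51a sequence is chr16:32487880-32488129 on the minus strand, Slc51b is chr9:65422774-65423023 on the minus strand, Tm4sf4 is chr3:57425160-57425409 on the plus strand and B4galt5 is chr2:167349179-167349428 on the minus strand.
Slc51a: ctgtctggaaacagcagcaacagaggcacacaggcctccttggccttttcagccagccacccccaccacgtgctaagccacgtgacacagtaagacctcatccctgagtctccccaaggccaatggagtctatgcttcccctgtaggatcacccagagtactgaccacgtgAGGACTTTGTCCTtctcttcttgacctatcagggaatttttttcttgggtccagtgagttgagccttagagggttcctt
Slc51b: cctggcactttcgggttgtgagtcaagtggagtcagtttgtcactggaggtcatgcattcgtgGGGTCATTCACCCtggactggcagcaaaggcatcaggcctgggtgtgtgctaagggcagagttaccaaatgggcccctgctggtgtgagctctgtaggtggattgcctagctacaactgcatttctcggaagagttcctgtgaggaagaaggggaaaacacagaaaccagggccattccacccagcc
Tm4sf4: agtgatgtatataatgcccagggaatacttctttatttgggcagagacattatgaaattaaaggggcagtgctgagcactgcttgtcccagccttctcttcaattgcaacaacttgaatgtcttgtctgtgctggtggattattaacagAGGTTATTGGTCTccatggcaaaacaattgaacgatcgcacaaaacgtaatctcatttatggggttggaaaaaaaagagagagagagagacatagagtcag
B4galt5: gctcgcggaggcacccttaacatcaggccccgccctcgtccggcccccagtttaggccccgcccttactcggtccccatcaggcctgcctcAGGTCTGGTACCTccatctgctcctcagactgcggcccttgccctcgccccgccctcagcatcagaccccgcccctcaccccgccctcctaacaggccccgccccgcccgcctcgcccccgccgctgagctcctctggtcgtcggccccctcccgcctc

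The repeat was searched on both strands in the 10898 tested genes that had a promoter entry, from 250 bases before to 50 after the start. An exact match to AGGTCANTGACCT was in 0 of these windows. A match with up to 1 change was in 7 of all windows and in 0 of the 38 for genes that rose at least 2-fold. With up to 2 changes it was in 131 of all windows (1.2%) and in 1 of these 38 (2.63%), that of Tlcd4, so none of the sequences shown above matches at that setting. A match with up to 3 changes was in 1240 of them (11.4%), in 39 of 280 for genes that rose (13.9%), in 39 of 265 for genes that fell (14.7%) and in 9 of 38 for genes that rose at least 2-fold (23.7%). The 9 genes were Slc51a, Slc51b, Tm4sf4, B4galt5, Osgin1, Etnppl, Plin5, Tlcd4 and Iqgap3. Iqgap3 met the minimum of 1 TPM only through the GW4064 libraries, so it had to differ, and it is still counted in this share. Among genes that fell at least 2-fold, Gdf15 and Slc25a25 held such a match, 2 of 22 (9.09%). The palindromic hexamer CACGTG, bound by basic helix-loop-helix factors, was in 11.5% of all windows, in 3 of 38 genes that rose at least 2-fold (7.89%) and in 6 of 22 that fell at least 2-fold (27.3%). It occurs 3 times in the Slc51a sequence above, where it overlaps no base of the marked repeat. These matches describe the letters in the windows and were not tested as binding sites.

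Across the tested genes, 702 (4.96%) were called at an adjusted p under 0.05, of which 367 rose (2.59%) and 335 fell (2.36%). The rises were the larger changes: 51 genes rose at least 2-fold (0.36% of those tested) and 29 fell at least 2-fold (0.205%). The median log2 change was 0.48 for genes that rose, -0.38 for genes that fell and -0.03 over all tested genes. The genes that rose summed to 32767 TPM with vehicle and 47266 TPM with GW4064, as group means, and those that fell to 41812 and 29766 TPM. Without a test, the GW4064 and vehicle libraries did not overlap for 3834 genes (27.1%), 1451 higher with GW4064 (10.2%) and 2383 lower (16.8%). Genes were called more often at high levels, with 1.07% of those at a mean under 2 TPM and 9.38% of those between 50 and 250 TPM. Of 371 microRNA entries 4 rose and 1 fell. The plot of change against level shows the rises reaching further from 0 than the falls.

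**Figure D1:**
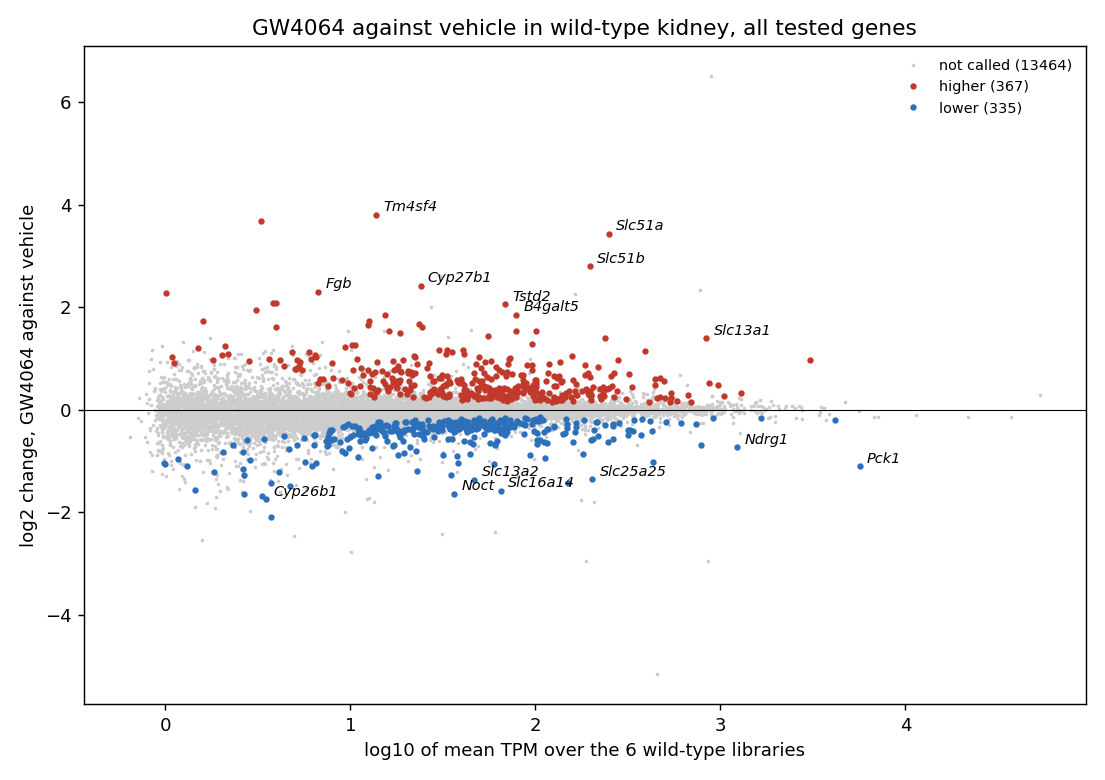
Each point is 1 of the 14166 tested genes. The x axis is the log10 of the mean TPM over the 6 wild-type libraries and the y axis is the log2 change on the log2(TPM + 0.5) scale. The 367 genes that rose are red, the 335 that fell are blue, and Tm4sf4 and the bile acid exporter subunits are among the highest of them. The uncalled point near the top and the lowest uncalled point are the beta globin genes Hbb-b1 and Hbb-bs, which have near-identical sequences.

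The calls were not equally robust. In 26 other settings, 12 that each left out 1 library and 14 with other filters, scalings, units, models or covariates, 300 of the 702 genes were called in every setting in which they were tested, 210 that rose and 90 that fell. The count fell to 341 without the first wild-type GW4064 library, 394 without the third vehicle library, 415 without the second GW4064 library and 456 without the first vehicle library. It was 436 with a score of fat markers in the model, described with the cell type markers. The call of each gene that is said to rise or fall was kept in all of these settings, unless libraries or settings are named beside it. With median-of-ratios scaling 457 genes rose and 237 fell, and no named gene changed direction in any setting. In whole-kidney RNA, fewer cells of a type and less RNA per cell cannot be told apart.

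In the knockout only 2 genes were called for GW4064 (0.0141%), and 0 genes were called in both genotypes by limma. Of the 14166 tested genes, 2770 had an unadjusted p under 0.05 in wild type and 473 had it in both genotypes. The 473 carry no direction and are not a count of shared responses. The median change in the knockout of the 367 genes that rose in wild type was -0.01, and of the 335 that fell it was 0.04. The response itself differed between genotypes for 467 genes (3.3%), among them 209 of the genes that rose in wild type (56.9%) and 132 of those that fell (39.4%). The difference includes the wild-type change by which those genes were picked, so shares above 3.3% among them were partly fixed in advance. The difference was called in all settings for 140 of these genes, 109 that rose and 31 that fell. The difference count fell to 220 without the first wild-type GW4064 library, 238 without the first knockout vehicle library, 261 without the third wild-type vehicle library, 279 without the third knockout GW4064 library, 286 without the first wild-type vehicle library and 298 without the second wild-type GW4064 library. Nr1h4 itself read 217, 267 and 248.9 TPM in wild-type vehicle, 189, 206 and 242 TPM in wild-type GW4064 and between 105 and 134 TPM over the 6 knockout libraries. These sums over the whole gene can hold exons outside the disrupted part, so they show a lower level in the knockout and do not check the deletion.

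**Figure D2:**
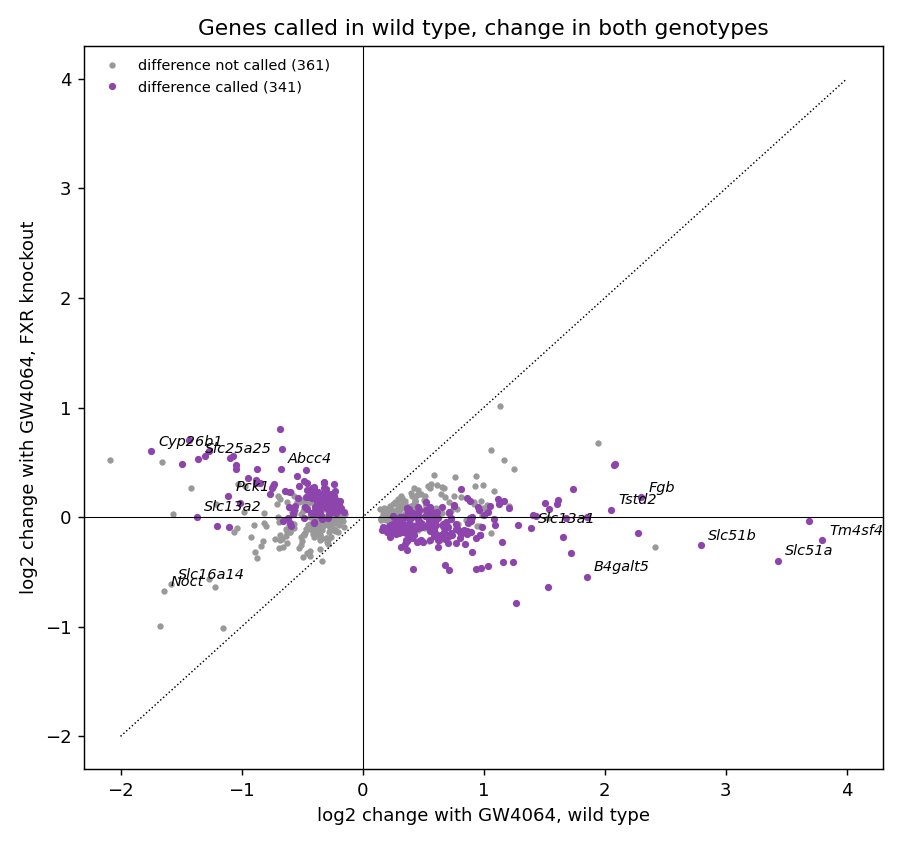
Each point is 1 of the 702 genes called in wild type, with its log2 change in wild type on the x axis and in the FXR knockout on the y axis. Purple marks the 341 genes whose response differed between genotypes. The dotted line marks equal change, and most points lie along the horizontal line at 0 and not along the dotted line.

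Among 21 tested genes known as FXR targets, 8 rose and 3 fell, with a median log2 change of 0.29 against -0.03 over all genes. The list holds the markers Slc51a and Slc51b and was chosen with earlier results known, so its count was partly fixed in advance. For this list and those below, the shares to set beside the counts are 2.59% higher and 2.36% lower over all tested genes. Besides the exporter subunits, the 4 rises that kept their call in all settings were Fgb, C3, Osgin1 and Ddah1. Of the 3 falls, that of Cyp26b1, described below, kept its call in all settings. Fgb, the beta chain of fibrinogen, read 1.65, 2.11 and 1.97 TPM with vehicle and 13.7, 12.3 and 8.61 TPM with GW4064, a log2 change of 2.30 ± 0.22. C3, the central complement component, read 9.84, 10.45 and 11.4 TPM with vehicle and 39.3, 47.3 and 22.8 TPM with GW4064, a change of 1.68 ± 0.20. For both genes the third GW4064 library was the lowest of its group and still lay above all vehicle libraries. Osgin1, an oxidative stress response protein, read 34.4, 37.1 and 44.8 TPM with vehicle and 155, 127 and 71.8 TPM with GW4064 (1.53 ± 0.28). Ddah1, which degrades the nitric oxide synthase inhibitor dimethylarginine, rose by a small and even step of 0.29 ± 0.05, from between 146 and 152 TPM with vehicle to between 181.5 and 183.5 TPM with GW4064. The difference from the knockout was called in all settings for Fgb and C3, and was not called for Osgin1 (adjusted p = 0.0557) or Ddah1 (adjusted p = 0.0681) in limma.

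The classical target Nr0b2 was near the limit of the filter and was not called. It read 2.65, 2.18 and 1.30 TPM with vehicle and 2.80, 2.72 and 2.65 TPM with GW4064, a log2 change of 0.38 ± 0.21 with adjusted p = 0.359 in limma. The highest vehicle library and the lowest GW4064 library were both at 2.65 TPM. Nr1h4 was not called either, at -0.20 ± 0.11. Abcc2, the apical exporter of organic anion conjugates, read 400.5, 386 and 411 TPM with vehicle and 660.1, 652 and 479 TPM with GW4064 (0.56 ± 0.12). Its call was lost with a replicate block and without any one of the 3 vehicle libraries, the first or the second GW4064 library (adjusted p up to 0.0925), and its change in the knockout was 0.30. Aqp2, the vasopressin-regulated water channel of the collecting duct, read 258 ± 22.1 TPM with vehicle and 179.5 ± 18.2 TPM with GW4064 (SD, n = 3 each; log2 change -0.52 ± 0.10), a call lost without the second vehicle or the first GW4064 library (adjusted p up to 0.0702) and with the fat score.

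Plasma protein genes did not move together. Of 32 tested, 4 rose and 2 fell, with a median of -0.18. Serpinc1, which encodes antithrombin, rose from 1.66, 1.64 and 1.69 TPM with vehicle to 7.80, 5.72 and 5.13 TPM with GW4064 (1.61 ± 0.21). It belongs with Fgb and C3 to the 3 that were called in all settings. Liver marker genes stand beside these values: the list had 5 of 12 members tested, with 0 called in limma and 0 at an unadjusted p under 0.05. Its summed level was 362 to 393 TPM with vehicle and 304 to 342 TPM with GW4064. Most of it was Apob at 151 to 200.5 TPM, Serpina1a at 80.7 to 110.4 TPM and Ttr at 63.5 to 94.8 TPM over the 6 wild-type libraries, Alb read 2.41 to 8.34 TPM, and Cyp7a1 and Cyp2c29 were at 0 in all 6. The part of liver transcripts in the plasma protein values was not tested.

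Several of the most responsive genes act outside bile acid transport. B4galt5, a galactosyltransferase that makes lactosylceramide, read 34.5, 32.8 and 34.4 TPM with vehicle and 129.8, 115.5 and 125 TPM with GW4064, a log2 change of 1.85 ± 0.10. Tstd2, a rhodanese-domain protein, read 23.0, 26.5 and 29.1 TPM with vehicle and 126, 107 and 98.4 TPM with GW4064 (2.05 ± 0.10). Etnppl, a phospho-lyase that degrades phosphoethanolamine, read 7.20, 6.10 and 6.01 TPM with vehicle and 24.4, 24.0 and 24.9 TPM with GW4064 (1.85 ± 0.26). Spread within the GW4064 group was small for B4galt5 and Etnppl, and the groups were far apart for all 3 genes. Misp3 rose by 1.66 ± 0.15, the antisense RNA Mkln1os by 1.74 ± 0.22, Rnase4, a secreted ribonuclease, by 1.60 ± 0.17, and Npm3, a nucleolar chaperone, by 1.43 ± 0.14. In the knockout B4galt5 read between 29.9 and 33.4 TPM with vehicle and between 18.3 and 26.1 TPM with GW4064 (-0.54, not called). The difference from the knockout was called in all settings for B4galt5 (adjusted p = 9.69e-06 in limma), Tstd2, Misp3, Rnase4 and Npm3.

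**Figure D3:**
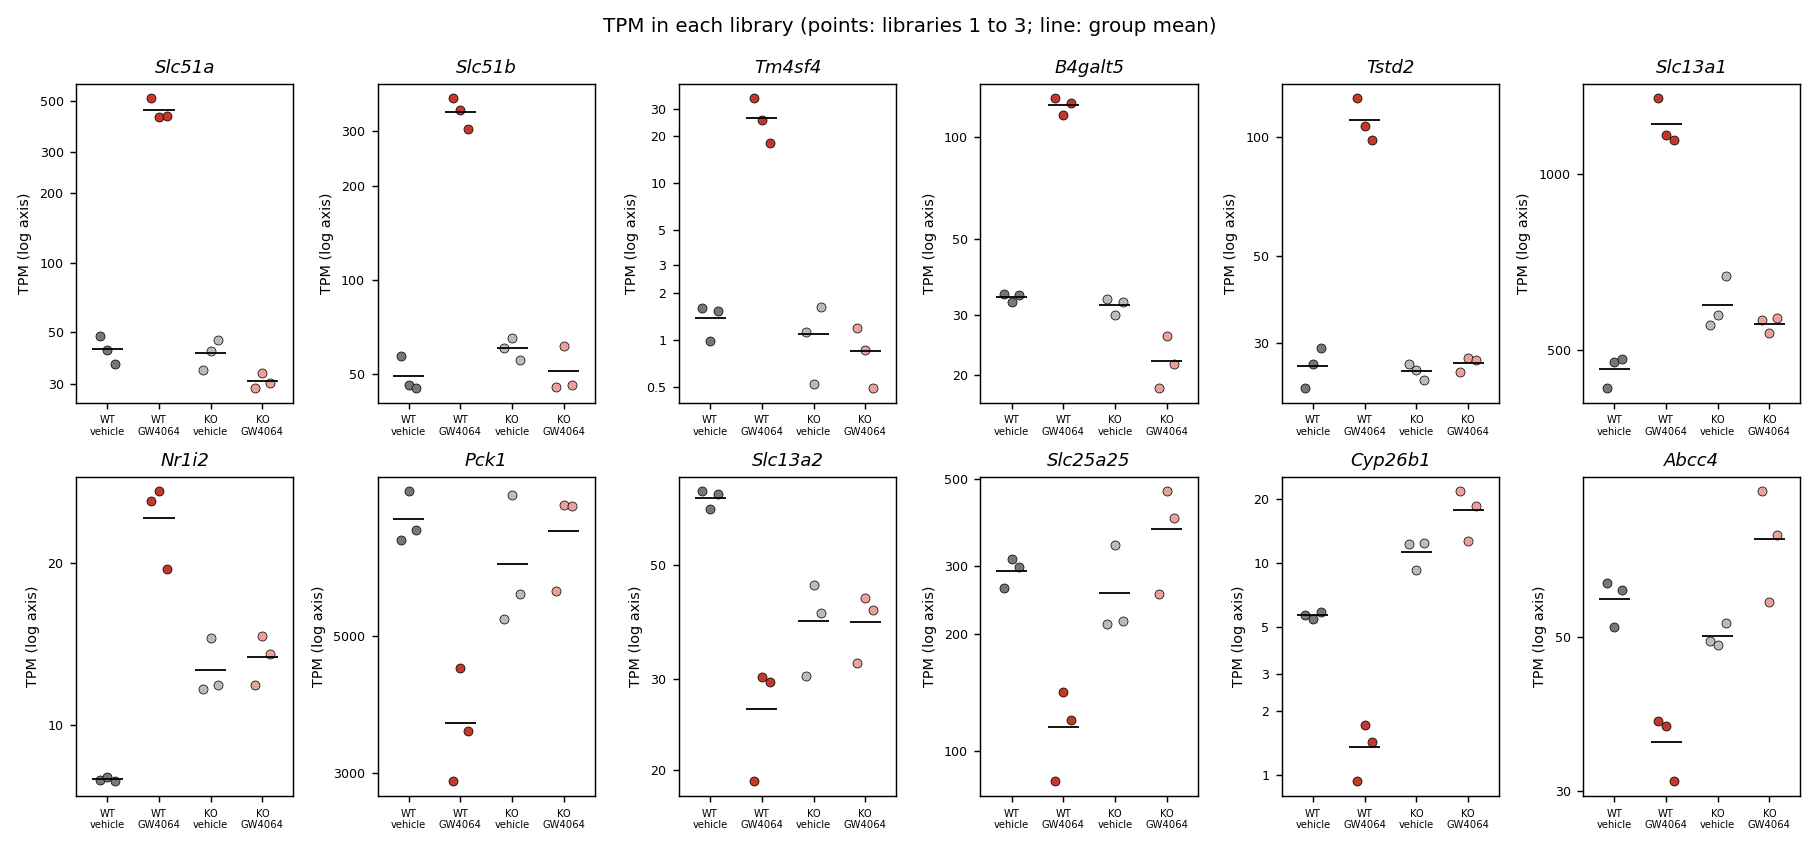
TPM of 12 genes in each of the 12 libraries, on log axes that differ between panels. Points are libraries 1 to 3 of a group from left to right and lines are group means. In the wild type the GW4064 libraries (red) lie apart from the vehicle libraries (dark grey) in every panel, as for Slc51a at 427 to 514 TPM against 36.4 to 48.1 TPM, and the knockout libraries (pale) show no such step in the same direction.

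Zdhhc19, which encodes a palmitoyltransferase, lies 8.4 kb from Slc51a and was singled out after its values were seen. It read 0.135, 0 and 0 TPM with vehicle and 7.57, 6.09 and 5.87 TPM with GW4064, and 0.371 TPM or less in every knockout library. It met the minimum of 1 TPM only through the GW4064 libraries, so it had to differ, and its values are given as a description with no test. Pcyt1a, 0.513 kb from Slc51a on the other side, read -0.17 (adjusted p = 0.151 in limma). No tested neighbour of Slc51b (3 genes) or Tm4sf4 (1 gene) within 50 kb was called.

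Of 32 nuclear receptor genes 3 rose and 4 fell, against 2.59% and 2.36% of all tested genes. Nr1i2, the pregnane X receptor that senses foreign compounds, read 7.90, 8.01 and 7.84 TPM with vehicle and 26.1, 27.2 and 19.4 TPM with GW4064, a log2 change of 1.54 ± 0.13. The vehicle libraries lay close together, and the knockout read 11.6 to 14.6 TPM in both treatments. Ppara, the fasting-responsive fatty acid receptor, fell from 107, 118 and 113 TPM to 82.7, 85.0 and 83.9 TPM (-0.42 ± 0.08). Vdr, the vitamin D receptor, fell from 129, 128 and 148 TPM to 79.4, 89.2 and 91.6 TPM (-0.63 ± 0.11). Of 29 tested genes of fatty acid oxidation and PPAR-alpha targets, 1 rose and 0 fell, with a median of 0.05.

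The vitamin D enzymes had large and uneven changes. Cyp27b1, which makes active vitamin D, read 10.4, 13.7 and 2.05 TPM with vehicle and 46.2, 40.3 and 31.3 TPM with GW4064 (2.42 ± 0.56, adjusted p = 0.0291 in limma). The groups did not overlap, although the third vehicle library was far below the other two. Cyp24a1, which inactivates vitamin D, read 58.6, 23.0 and 84.5 TPM with vehicle and 101, 147 and 190 TPM with GW4064 (1.53 ± 0.37, adjusted p = 0.0349 in limma), and 176 to 310 TPM over the knockout libraries. The Cyp27b1 call was lost without any one of the 3 GW4064 libraries (adjusted p up to 0.109), and the Cyp24a1 call without the first vehicle, the second or the third GW4064 or the first knockout vehicle library (up to 0.108). Both were also lost with no variance trend, with the fat score and in a fit of the wild-type libraries alone, and Cyp24a1 with no filter on low values. Fgfr1, the main renal receptor for the phosphate hormone FGF23, fell by 0.38 on the log2 scale, and over the 24 genes of the vitamin D, calcium and phosphate list 3 rose and 3 fell.

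Cyp26b1, which degrades retinoic acid, was the gene with the largest log2 fall among those described here. It read 5.68, 5.45 and 5.87 TPM with vehicle and 0.936, 1.72 and 1.44 TPM with GW4064, a log2 change of -1.75 ± 0.20. In the knockout it read 9.20 to 12.4 TPM with vehicle and 12.7 to 21.6 TPM with GW4064, so that the genotypes moved in opposite directions by value and the response differed (adjusted p = 0.00163 in limma). Of 17 retinoid genes tested, 1 rose and 2 fell, against 2.59% and 2.36% of all tested genes.

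Solute carriers, the family that holds most membrane transporters of the tubule, gave 52 of the 702 called genes. Of 299 tested solute carrier genes 24 rose and 28 fell (17.4%, against 4.96% of all genes), with a median of -0.04. At a mean of at least 50 TPM, where calls are more frequent in general, 34 of 118 solute carriers were called (28.8%), against 318 of 3454 genes of any kind (9.21%). This is a description of the shares, with no test between them.

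Of 21 sulfate, organic acid and monocarboxylate carriers 1 rose and 4 fell, each in every setting, and 16 were not called, with a median of -0.11. Slc13a1, the sodium-sulfate cotransporter of the proximal tubule, read 431, 478 and 483 TPM with vehicle and 1345, 1165 and 1142 TPM with GW4064, a log2 change of 1.39 ± 0.08. Its close relative Slc13a2, which takes up citrate and other dicarboxylates, read 69.4, 64.1 and 68.6 TPM with vehicle and 19.0, 30.3 and 29.6 TPM with GW4064, a change of -1.37 ± 0.18. Neither gene's groups overlapped. Slc16a14, an orphan monocarboxylate carrier, fell from 99.96, 114.5 and 78.4 TPM to 30.1, 27.9 and 38.4 TPM (-1.58 ± 0.23), and read -0.61 in the knockout. Slc16a10, an aromatic amino acid carrier, fell by 0.57 and Slc16a13 by 0.36 on the log2 scale. Slc16a1, the widely expressed lactate carrier, showed no called change in wild type (0.05 ± 0.10, adjusted p = 0.829 in limma), at 22.0 to 24.8 TPM with vehicle and 21.7 to 27.6 TPM with GW4064. In the knockout it stood at 90.4 to 111 TPM with vehicle and 163 to 180.2 TPM with GW4064, and it is one of the few genes called there.

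Among 25 tested conjugation genes 2 rose and 1 fell, with a median of -0.11, and 1 of the rises was Papss2, the gene of the enzyme that makes the sulfate donor PAPS. It read 325, 362 and 371 TPM with vehicle and 556, 538 and 514 TPM with GW4064 (0.61 ± 0.05). Cdo1, whose product oxidises cysteine on the way to taurine and sulfate, was named after its values were seen and rose from 175, 212 and 179.7 TPM to 396, 351 and 358 TPM (0.96 ± 0.12). Slc6a6, the taurine carrier, rose from 231, 279.5 and 228 TPM to 404, 401.5 and 388 TPM (0.70 ± 0.08). Slc6a13, which carries taurine and GABA, rose from 100.4, 108 and 104 TPM to 165, 168 and 157 TPM (0.65 ± 0.05). For Papss2, Slc6a6 and Slc6a13 the difference from the knockout was called in all settings.

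Among 32 sugar and amino acid carriers 5 rose and 5 fell, against 2.59% and 2.36% of all tested genes. Besides the taurine carriers, Slc2a2, the basolateral glucose carrier, rose from 205, 194 and 195 TPM to 326.5, 314 and 299 TPM (0.66 ± 0.10). Slc5a1, a sodium-glucose cotransporter, rose from 84.7, 74.5 and 79.7 TPM to 109, 101 and 105 TPM (0.40 ± 0.06). Slc7a8, a basolateral neutral amino acid exchanger, fell from 73.1, 77.6 and 73.4 TPM to 46.3, 49.6 and 51.1 TPM (-0.60 ± 0.08). Slc5a2, the main apical glucose carrier of the tubule, had a log2 change of 0.05 (adjusted p = 0.783 in limma), and Slc2a5, a fructose carrier, fell by 0.48 on the log2 scale. The Slc2a5 call was lost without any one of the vehicle libraries, the first or the second GW4064 library or the first or the third knockout vehicle library (adjusted p up to 0.146), with no filter on low values, with no variance trend and with the fat score. Further called falls were Slc1a5, a glutamine carrier, at -0.39 ± 0.06, and Slc6a18, an apical glycine carrier, at -0.41 ± 0.08. A pair of organic anion carriers, named after their values were seen, also rose, Slc22a26 by 1.09 ± 0.16 and Slc22a28 by 0.71 ± 0.09. Abcc4, an apical exporter of urate and conjugates, fell from 59.8, 51.7 and 58.4 TPM to 37.8, 37.2 and 31.0 TPM (-0.68 ± 0.12), and read 48.7 to 52.3 TPM with vehicle and 56.2 to 81.0 TPM with GW4064 in the knockout.

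Of 41 carriers of the inner mitochondrial membrane 5 rose and 4 fell, against 2.59% and 2.36% of all tested genes. Slc25a25, an ATP-magnesium/phosphate carrier, read 262, 313 and 297 TPM with vehicle and 83.6, 142 and 120.1 TPM with GW4064, a log2 change of -1.36 ± 0.25. Slc25a10, the dicarboxylate carrier, fell from 241, 234 and 235 TPM to 169, 196 and 178 TPM (-0.39 ± 0.07). The groups were apart for each of these carriers. Slc25a36, a pyrimidine nucleotide carrier, rose by 0.36 ± 0.05, Slc25a30 by 0.37 ± 0.07 and Slc25a48 by 0.91 ± 0.15. The respiratory chain list, by contrast in count, had 0 of 35 tested members called in limma and 3 at an unadjusted p under 0.05, with a median of 0.03.

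**Figure D4:**
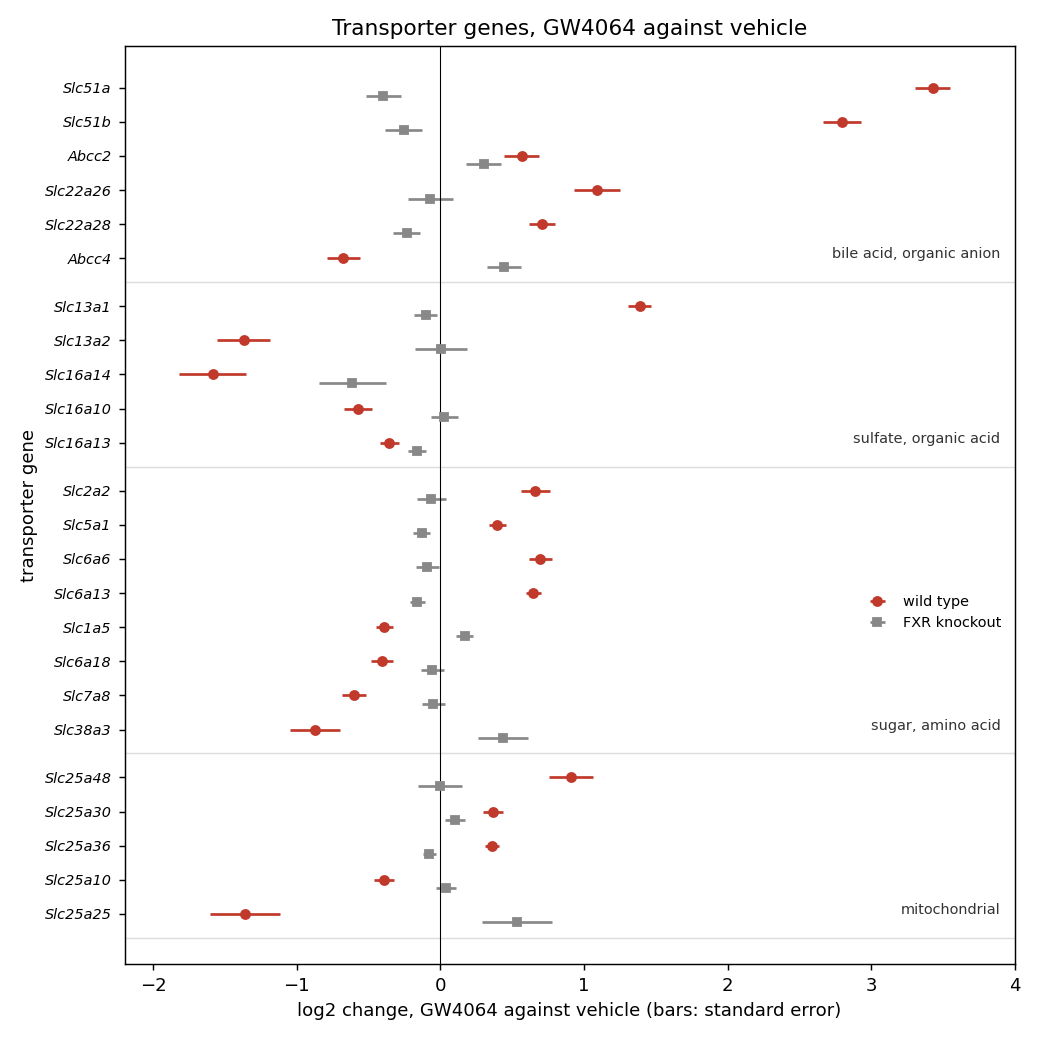
Log2 change of 24 transporter genes named in the text as rising or falling in wild type, GW4064 against vehicle, with standard errors, in wild type (red circles) and FXR knockout (grey squares), grouped by cargo. Wild-type values run from 3.43 for Slc51a to -1.58 for Slc16a14, and the knockout values of these 24 lie between -0.61 and 0.53. Slc16a1 and Slc2a5 are not drawn, and had log2 changes of 0.75 and 0.33 in the knockout.

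Glucose production was represented by a fall of its key enzyme. Pck1, phosphoenolpyruvate carboxykinase, read 7146, 8548 and 7411 TPM with vehicle and 2906, 4428 and 3511 TPM with GW4064, a log2 change of -1.11 ± 0.19 and the largest absolute fall among the genes named. Slc38a3, the glutamine carrier that feeds renal ammonia and glucose production, fell from 51.0, 54.5 and 66.3 TPM to 29.1, 34.9 and 28.99 TPM (-0.87 ± 0.17). Its call was lost without the third vehicle, the first GW4064 or the third GW4064 library (adjusted p up to 0.0643). Over the 20 genes of gluconeogenesis and ammonia production 1 rose and 4 fell, with a median of -0.08. For Pck1 the difference from the knockout (adjusted p = 0.0258 in limma) was lost in 9 settings, up to an adjusted p of 0.0776, among them those without the second or the third wild-type vehicle, the first or the third wild-type GW4064, the first or the third knockout vehicle or the third knockout GW4064 library.

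Of 16 tested genes of arginine, creatine and urea metabolism 3 rose and 0 fell, against 2.59% of all tested genes that rose, and the median of the list rounds to 0. The 3 were Ddah1, Ass1 and Asl. At the locus of Ass1, argininosuccinate synthase, the deposited tables carry most of the signal under an entry named Gm5424 that lies at chr2:31470308-31520629 within the Ass1 interval. The RefSeq table places Gm5424 on another chromosome, so both entries were summed. The sum was 2120, 2095 and 1938 TPM with vehicle and 4390, 3873 and 3853 TPM with GW4064 in wild type. In the knockout it was 2547, 2469 and 2457 TPM with vehicle and 1583, 2160 and 1717 TPM with GW4064, so the genotypes moved in opposite directions by value. The larger entry rose by 0.97 ± 0.10 (adjusted p = 1.81e-04 in limma), and the small Ass1 entry by 1.27 ± 0.25, a call lost without the first GW4064 library (adjusted p = 0.0627) and with the fat score. Asl, the next enzyme of the cycle, rose by 0.40 ± 0.08, a call lost without the first or the third vehicle or the first GW4064 library (adjusted p up to 0.0706) and with the fat score. A pair of genes outside the list was named after their values were seen. Gldc, of the glycine cleavage system, rose from 201, 302 and 226.5 TPM to 554, 588 and 465 TPM (1.15 ± 0.17). Glyctk, glycerate kinase, rose from 105, 104 and 100.2 TPM to 242, 204 and 195 TPM (1.04 ± 0.11).

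Lipid genes changed in several branches. Sgms1 and Sgms2, which make sphingomyelin from ceramide, rose by 0.47 ± 0.06 and 0.45 ± 0.05. With B4galt5, 3 of 27 sphingolipid genes rose and 2 fell, against 2.59% and 2.36% of all tested genes. Chdh, which oxidises choline, rose from 196, 209 and 205 TPM to 258, 278 and 276 TPM (0.41 ± 0.05). Etnk1, which phosphorylates ethanolamine, rose by 0.36 ± 0.05, and with Etnppl these made 3 of 21 phospholipid genes that rose, against 1 that fell. Crls1, cardiolipin synthase, rose from 51.5, 46.2 and 47.2 TPM to 105, 94.8 and 89.5 TPM (0.99 ± 0.08), and Dgkd, a diacylglycerol kinase, from 52.9, 59.3 and 54.4 TPM to 149.5, 137 and 122 TPM (1.28 ± 0.08). Both were named after their values were seen, as were the next pair. Plin5, a lipid droplet coat protein, rose from 8.34, 10.4 and 9.46 TPM to 23.3, 34.5 and 25.7 TPM (1.503 ± 0.15). G0s2, an inhibitor of the lipase that opens droplets, fell from 151, 157 and 136 TPM to 59.8, 85.8 and 87.1 TPM (-0.95 ± 0.18). Lpin1, a phosphatidate phosphatase, fell by 1.06 on the log2 scale, a call lost without the first GW4064 library (adjusted p = 0.052). Elovl6, a fatty acid elongase, rose by 0.49 ± 0.09.

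Peroxisomal and sterol enzymes also responded. Amacr, the racemase of branched-chain fatty acids and bile acid intermediates, rose from 169, 137 and 161 TPM to 287, 257 and 289.8 TPM (0.84 ± 0.09). Akr1d1, the reductase that forms the bile acid ring junction, rose from 37.2, 34.95 and 33.1 TPM to 62.0, 55.2 and 55.5 TPM (0.71 ± 0.10). Acox2, the peroxisomal oxidase of bile acid side chains, fell from 139.6, 143 and 142 TPM to 89.0, 89.8 and 90.1 TPM (-0.66 ± 0.09). Enzymes that act on bile acid intermediates therefore moved in both directions. Phyh, which starts phytanic acid oxidation, rose by 0.53 ± 0.06. Of 24 cholesterol genes 2 rose and 4 fell, against 2.59% and 2.36% of all tested genes, with a median of -0.11. Idi1, isopentenyl diphosphate isomerase, rose from 33.2, 30.6 and 31.1 TPM to 48.6, 46.3 and 49.2 TPM (0.59 ± 0.07), while the later enzymes Sqle and Hsd17b7 fell by 0.38 and 0.43 on the log2 scale.

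Ferroptosis, the iron-dependent death of cells through lipid peroxidation, is named in the series title. Aifm2, which encodes the ferroptosis suppressor FSP1, read 25.5, 23.6 and 22.7 TPM with vehicle and 39.1, 40.9 and 35.6 TPM with GW4064, a log2 change of 0.67 ± 0.08. Gclm, a subunit of the rate-limiting enzyme of glutathione synthesis, rose from 284, 272.5 and 292.5 TPM to 396, 401 and 351.5 TPM (0.43 ± 0.05). Gsr, glutathione reductase, rose from 209.7, 212 and 215.5 TPM to 291, 294.5 and 269.8 TPM (0.42 ± 0.06). The GW4064 libraries lay above the vehicle libraries for all 3 genes. Gpx4, the enzyme that removes lipid peroxides, read 1296, 1216 and 1195 TPM with vehicle and 1205, 1222 and 1209 TPM with GW4064, with no called change (-0.03 ± 0.05, adjusted p = 0.799 in limma). Acsl4, which loads membranes with oxidisable fatty acids, read 66.9 to 70.3 TPM with vehicle and 55.5 to 57.0 TPM with GW4064. It was not called (-0.28 ± 0.09, adjusted p = 0.114 in limma), although the groups did not overlap, and was called in the fit of the 6 wild-type libraries alone and without the second knockout vehicle library. Over the lists, 5 of 31 suppressors rose and 1 fell, with a median of 0.00. Of 23 drivers 1 rose and 1 fell, with a median of -0.04. Among all tested genes 2.59% rose and 2.36% fell. The difference from the knockout was called in all settings for Aifm2 (adjusted p = 0.00474 in limma) and was not called for Gclm (0.0757) or Gsr (0.356), which read 0.16 and 0.26 in the knockout.

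Calls among targets of the oxidative stress factor NRF2 went in both directions. Of 31 tested, 4 rose and 6 fell, with a median of -0.14 in wild type and 0.28 in the knockout. All GW4064 libraries lay below all vehicle libraries for 14 of the 31 and above them for 5. Over all tested genes these shares were 16.8% and 10.2%. An unadjusted p under 0.05 in limma was reached by 20 of the 31. The 4 that rose were Gclm, Gsr, Osgin1 and Gsta4, a glutathione transferase that clears lipid aldehydes, which went from 98.1, 99.97 and 78.7 TPM to 224, 172 and 140.2 TPM (0.93 ± 0.14). In the knockout Gsta4 read 162 to 187 TPM with vehicle and 211 to 217 TPM with GW4064. Among those that fell were Tkt, transketolase of the pentose phosphate pathway, at -0.35 ± 0.05, and Ugdh, which makes UDP-glucuronate, at -0.32 ± 0.06. Abcc4, described with the transporters, is on this list as well.

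Calls in the stress and injury lists went in both directions, and several were lost without single libraries. Among 16 tested tubule injury markers 2 rose and 2 fell, 4 of 16 against 4.96% of all tested genes. Hbegf, a growth factor shed by injured tubules, rose from 9.78, 13.3 and 11.2 TPM to 23.6, 22.2 and 21.6 TPM (0.96 ± 0.12). Havcr1, the kidney injury molecule, read 1.997, 1.45 and 0.771 TPM with vehicle and 4.09, 2.15 and 3.61 TPM with GW4064 and was not called (1.01 ± 0.36, adjusted p = 0.15 in limma). Lcn2, another injury marker, read 2.87 to 5.05 TPM with vehicle and 2.44 to 5.10 TPM with GW4064 (-0.11 ± 0.29). Of 19 genes of the ATF4 stress response 0 rose and 2 fell, Nupr1 by 1.04 and Gdf15 by 1.04 on the log2 scale. The Nupr1 call was lost without the first GW4064 library (adjusted p = 0.054), and the Gdf15 call without the third vehicle or the first or the second GW4064 library (up to 0.0702). The small heat shock protein gene Cryab fell by 0.88, a call lost without the first or the third vehicle or any one of the GW4064 libraries (up to 0.105), with the fat score and with no variance trend. Of 23 unfolded protein response genes 0 were called in limma and 4 had an unadjusted p under 0.05, and of 28 genes of interferon and inflammation 0 and 1.

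Of 34 tested cell cycle genes 5 rose and 0 fell, against 2.59% of all tested genes that rose and 34 of 3361 genes at a mean of 2 to 10 TPM. The median was 0.48 in wild type and 0.05 in the knockout, and for 20 of the 34 all GW4064 libraries lay above all vehicle libraries, as they did for 10.2% of all tested genes. Kif20b, a mitotic kinesin, rose from 7.44, 7.28 and 6.54 TPM to 10.5, 10.98 and 10.99 TPM (0.58 ± 0.09), and Rrm2, a ribonucleotide reductase subunit, from 7.56, 5.53 and 5.72 TPM to 9.57, 9.86 and 9.81 TPM (0.61 ± 0.11). The proliferation gene Mki67 read 5.74, 3.69 and 3.20 TPM with vehicle and 8.21, 8.39 and 9.93 TPM with GW4064 (1.02 ± 0.24). Top2a read 5.37, 3.69 and 2.99 TPM with vehicle and 7.85, 7.09 and 9.997 TPM with GW4064 (0.98 ± 0.21), and Ccna2 rose by 0.97 ± 0.22. The first vehicle library was the highest of its group for these 3 genes. Their calls depended on the libraries: Mki67 was lost without the second or the third vehicle or any one GW4064 library (adjusted p up to 0.124), Top2a without the second or the third vehicle or the first or the third GW4064 library (up to 0.0846) and Ccna2 without the second or the third vehicle or the second or the third GW4064 library (up to 0.113). All 3 were also lost with a replicate block, Top2a and Mki67 with the fat score, and Mki67 with no filter on low values.

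Clock and hormone genes gave scattered calls. Of 22 clock genes 2 rose and 2 fell. Noct, a rhythmic NADP(H) phosphatase, read 42.6, 81.3 and 42.9 TPM with vehicle and 12.5, 16.0 and 22.9 TPM with GW4064 (-1.64 ± 0.31), a call lost without the first GW4064 library (adjusted p = 0.052). Hlf, a clock output factor, fell from 72.9, 70.8 and 65.6 TPM to 43.1, 46.4 and 42.8 TPM (-0.66 ± 0.11), and Csnk1d, a clock kinase, rose by 0.21 ± 0.04. The vehicle time was not labelled, so a difference in hour of sampling and the treatment cannot be told apart here. In the growth hormone and IGF list, with 1 rise and 4 falls among 27 genes, Igfals, which stabilises circulating IGF, rose by 0.56 ± 0.11 and Igfbp5 fell by 0.63 on the log2 scale. Bcl6, a transcriptional repressor, read 38.8, 51.4 and 56.2 TPM with vehicle and 13.3, 34.6 and 16.5 TPM with GW4064 (-1.27 ± 0.29). Its call was lost without the second or the third vehicle or the first or the third GW4064 library (adjusted p up to 0.117), without the variance trend and in the fit of the wild-type libraries alone.

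Some abundant genes with other roles fell. Ndrg1, a stress and differentiation gene, read 1380, 1783 and 1451 TPM with vehicle and 774, 1047 and 959.8 TPM with GW4064 (-0.73 ± 0.12), against 2669 to 3863 TPM in the knockout. Tsc22d1, a leucine zipper regulator, fell from 531, 658 and 543 TPM to 262, 312 and 280.5 TPM (-1.01 ± 0.16). Timp3, an inhibitor of matrix proteases, fell from 1023, 943 and 956 TPM to 580.1, 598 and 638 TPM (-0.69 ± 0.08). None of these groups overlapped. Genes of the matrix fell in small numbers: Tnn, tenascin N, by 1.10, and, named after their values were seen, Spon1 by 0.88 and Col8a1 by 0.75 on the log2 scale, while the laminin gene Lama1 rose by 0.44. In the collagen and basement membrane list 1 of 32 rose and 2 fell. Prob1 fell by 1.20. Cck, the peptide hormone cholecystokinin, fell by 1.30, a call lost without the first or the third vehicle or the first or the second GW4064 library (adjusted p up to 0.0879) and with the fat score.

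**Figure D5:**
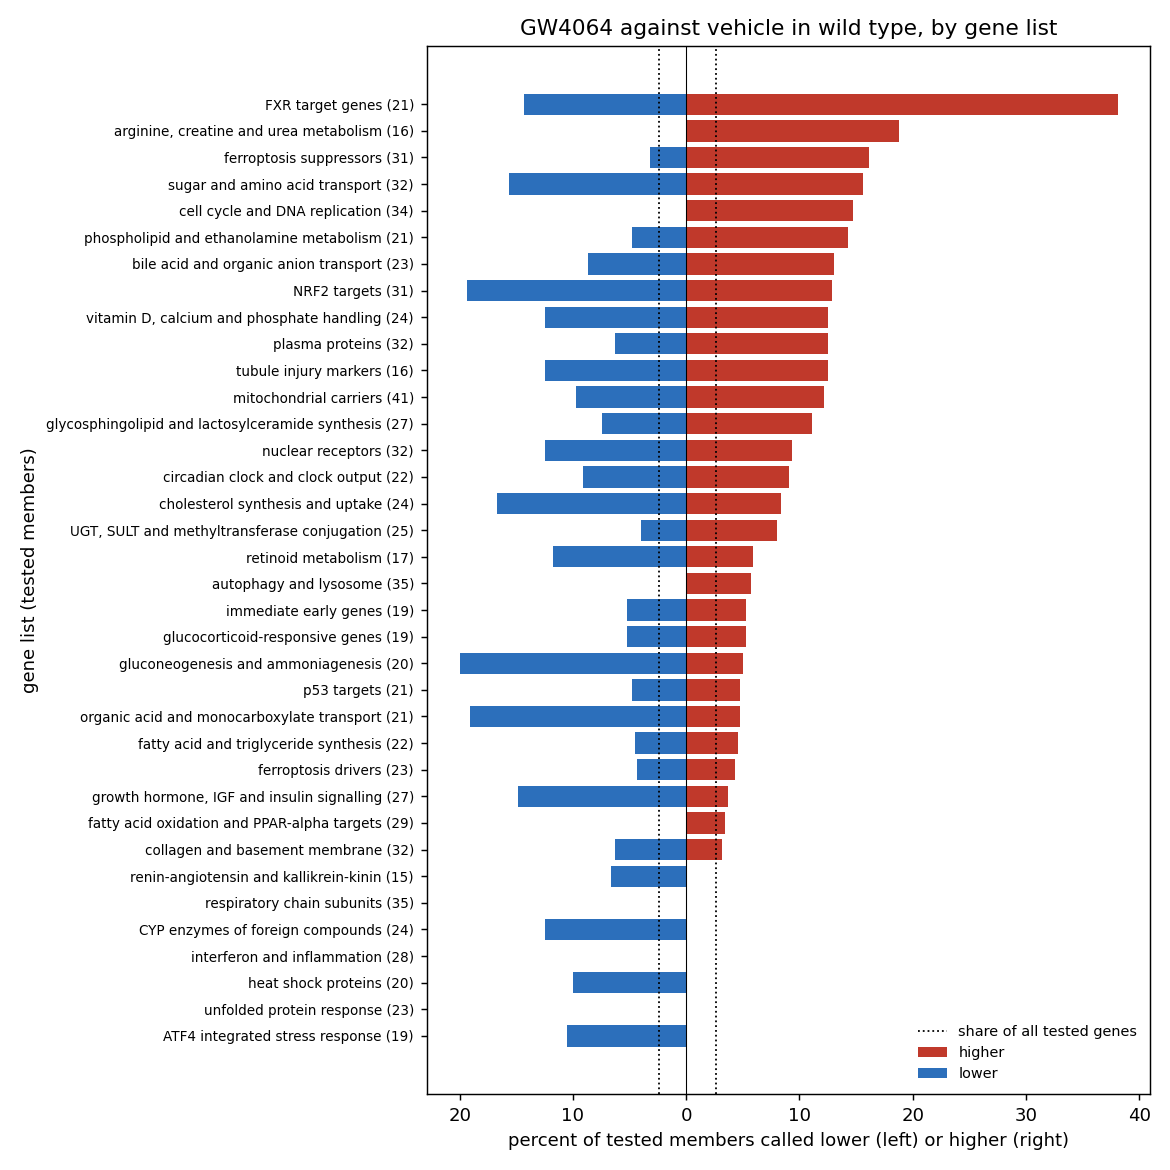
Percent of the tested members of each of 36 gene lists that rose (red, right) or fell (blue, left) with GW4064 in wild type, with the number of tested members in parentheses. Dotted lines mark the shares of all tested genes, 2.59% higher and 2.36% lower. The FXR target list has the highest share of rises, 8 of 21 genes, and several lists hold rises and falls together. The FXR list holds the markers Slc51a and Slc51b and was chosen with earlier results known, so its rank was partly fixed in advance.

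Of 20 proximal tubule markers 3 rose and 1 fell, against 4.96% of all tested genes called. An unadjusted p under 0.05 in limma was reached by 10 of them, against 2770 of the 14166 tested genes. Each of the other kidney lists had at most 1 call. For the proximal tubule list the summed level went from 68390 to 68950 TPM with vehicle to 77360 to 82520 TPM with GW4064. Most of that sum was Kap, an abundant kidney protein gene, at 47900 to 48360 TPM and 56100 to 61190 TPM, which was not called. Loop of Henle markers summed to 7587 to 7692 TPM and 7406 to 7541 TPM, with 0 rises and 1 fall among 10, and principal cell markers to 739 to 790.2 TPM and 616 to 681 TPM, with Aqp2 the 1 fall among 13. Podocyte markers summed to 336 to 347 TPM and 316 to 320.1 TPM and endothelial markers to 719 to 784 TPM and 692 to 728 TPM, with 0 of 12 (3 at an unadjusted p under 0.05) and 1 of 14 called in limma. Distal convoluted tubule markers summed to 3969 to 4184 TPM and 4011 to 4369 TPM and intercalated cell markers to 532 to 573 TPM and 529.9 to 556 TPM, with 0 of 10 and 0 of 13 called, 2 and 3 at an unadjusted p under 0.05. Markers of stroma and vascular smooth muscle summed to 393 to 492 TPM and 346 to 415 TPM, with 0 rises and 1 fall among 12. Their median log2 change was -0.32 in wild type and 0.03 in the knockout, and 6 had an unadjusted p under 0.05 in limma. In the macrophage list 1 of 11 was called, Csf1r, the receptor for macrophage growth factor, which rose from 37.3 to 40.5 TPM to 46.1 to 48.8 TPM. The part of any shift in cell composition in the gene results was not tested.

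Markers of tissue attached to the kidney varied between libraries. A fat score, taken as the average of log2 levels for the adipocyte genes Plin1, Adipoq, Cidec and Cfd, was 2.16, 1.99 and 2.30 in the vehicle libraries and -0.26, 2.70 and 0.52 in the GW4064 libraries. The first GW4064 library was thus the lowest and the second the highest of the 6. Of 11 tested fat markers 0 were called in limma and 3 had an unadjusted p under 0.05. The summed level of the list was 609.7 to 676 TPM with vehicle and 655 to 855 TPM with GW4064. Most of that sum was Lpl, at 335 to 413 TPM with vehicle and 438 to 617 TPM with GW4064, and Fabp4, at 155 to 161 and 146 to 184 TPM. The median log2 change of the fat list was -0.46 in wild type and 0.37 in the knockout. Blood markers summed to 1154 to 2847 TPM with vehicle and 844 to 1300 TPM with GW4064. The list held Hbb-bs, at 23.0 to 1617 TPM with vehicle and 1.99 to 19.2 TPM with GW4064, but not the near-identical Hbb-b1. Beta globin signal assigned to Hbb-b1 is thus missing from the blood sum, and its part was not tested. Urothelial markers summed to 134 to 147 TPM with vehicle and 111 to 114 TPM with GW4064. In both lists 0 of 7 tested members were called in limma, with 1 blood and 3 urothelial genes at an unadjusted p under 0.05. The urothelial sum was mostly Krt7, at 89.3 to 104 TPM and 89.0 to 90.7 TPM. Urothelial genes at lower levels read less with GW4064 without overlap, Psca at 17.9 to 19.5 TPM with vehicle and 7.80 to 8.63 TPM with GW4064 (-1.12, adjusted p = 0.058 in limma) and Upk3a at 7.95 to 8.73 TPM and 3.005 to 4.25 TPM (-1.05, adjusted p = 0.0768). Upk2 read -0.89 and Upk3b -0.77, and the list's median was -0.77 in wild type and 0.36 in the knockout. The part of urothelium in the gene results was not tested. Adrenal cortex markers summed to 19.4 to 21.7 TPM and 23.4 to 26.2 TPM, with Cyp11b1, Cyp11b2 and Nr5a1 at 0 and 0 of 3 tested members called, 1 at an unadjusted p under 0.05. The lymphocyte list had 2 of 13 members tested and 0 called. With the fat score as a covariate 408 of the 702 genes were still called, and among the named genes 10 lost their call.

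The GW4064 libraries differed by rank in the genes that changed most. Of the 51 genes that rose at least 2-fold, the first GW4064 library was the highest of its group for 32 and the third was the lowest for 34. Of the 29 genes that fell at least 2-fold, the first was the lowest for 17 and the third the highest for 16. These counts describe ranks of single libraries over genes that may move together, and their cause was not tested. Mapped bases were 2.86 to 3.85 gigabases over the 6 libraries, derived from the deposited coverage, and 16710 to 17025 genes were above 0. Pearson correlation of log2 values across genes was 0.985 to 0.987 within the wild-type groups and 0.977 to 0.984 between them.

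Some named genes share their locus with another gene, and strand-aware counting by the authors is not stated in the labels. Rnase4 overlaps Ang on the same strand. Slc51b overlaps Rasl12, Tstd2 overlaps Tmod1, Aifm2 overlaps Macroh2a2, Chdh overlaps Cacna1d, Timp3 overlaps Syn3, Slc25a25 overlaps Naif1, Cyp24a1 overlaps Pfdn4 and Cryab overlaps Hspb2, all on the opposite strand. The values of these genes are uncertain to the extent that reads were shared. Rasl12 itself read -0.14 with adjusted p = 0.519 in limma.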

How the data were processed

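Kidney RNA from 12 libraries was analysed, with groups taken from the sample labels. The authors deposited 1 gene table per library with coverage, FPKM and TPM; the tools named in the submitters' processing notes are Cufflinks, StringTie and HISAT2 and the build is mm10, with no version, role or annotation given. The deposited TPM values scale each library to 1000000 and were the main unit. The deposited FPKM values differ from TPM by 1 factor per library and served as an alternative. The deposited coverage signal served for depth only. No counts were used here, so no count test was run.

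Entries of 1 identifier were summed (113 to 142 identifiers per wild-type library had several). Symbols came from the RefSeq gene table of GRCm38.p6, with 24462 of 24532 identifiers matched. The tables held no mitochondrially encoded gene. Genes with TPM of at least 1 in at least 3 of the 6 wild-type libraries were tested. Of these, 23 met the minimum through the GW4064 libraries only, of which 6 rose, and 32 through the vehicle libraries only, of which 3 fell; these calls are in the counts although such genes had to differ. On log2(TPM + 0.5) of all 12 libraries, limma 3.58.1 in R 4.3.3 fitted each group's mean, moderating variances along the expression level. Benjamini-Hochberg adjustment of p-values ran over all tested genes, separately per comparison; called means an adjusted p under 0.05. The fit was tested on simulated data. Standard errors stand beside log2 changes. With 3 libraries a group, the smallest two-sided p of an exact permutation test is 0.1, so none was run. Within groups, log2 values had a median SD of 0.0915 (vehicle) and 0.0878 (GW4064).

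The members, the 51 gene lists (1175 of 1177 entries matched a gene) and the genes to be named were chosen with earlier results of these data known, and the lists come from general knowledge. Named are 12 genes fixed for checking the labels and the series title, up to 12 called genes per direction of largest log2 change at a mean of at least 5 TPM with a full symbol, up to 6 per direction of largest TPM difference, and up to 3 called members per list and direction of lowest p. Zdhhc19, Plin5, Npm3, Dgkd, Gldc, Cdo1, Glyctk, Amacr, Akr1d1, Acox2, Crls1, Slc22a26, Slc22a28, G0s2, Col8a1 and Spon1 were added once their values were known. The rule also gives genes that the text leaves out. Lists are described by counts and medians, with no set test. Alternatives were pseudocounts of 0.1 and 1, filters, scalings, FPKM, no variance trend, library weights, protein-coding genes only, a replicate block, a fat score, the wild-type libraries alone, and leaving out each library. Python 3.11.15 (pandas 2.3.3, matplotlib 3.10.9, numpy 2.4.6) made tables and figures. A few genes are not reported here.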

Additional observations from a re-analysis of the deposited data

Results flagged for a closer look

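The GW4064 response of 73 named genes differed between wild type and FXR knockout (interaction, adjusted p under 0.05 in limma over all tested genes). The values are the wild-type log2 change minus the knockout log2 change, with 3 libraries in each of the 4 groups. For 38 of these genes the difference was called in every setting run.

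In this set the difference was positive at 3.83 for Slc51a, 3.05 for Slc51b, 4.01 for Tm4sf4, 2.12 for Fgb, 1.69 for C3, 1.99 for Tstd2, 2.39 for B4galt5, 1.84 for Misp3 and 1.49 for Rnase4. It was also positive at 1.47 for Nr1i2, 1.49 for Slc13a1, 0.81 for Slc6a13, 0.79 for Slc6a6, 0.53 for Slc5a1, 0.44 for Slc25a36 and 0.68 for Papss2. Further positive values were 0.39 for Chdh, 1.08 for Crls1, 1.36 for Dgkd, 1.37 for Plin5, 0.64 for Idi1, 2.06 for Ass1, 1.44 for Gm5424, 1.38 for Gldc and 1.48 for Glyctk. Ass1 and Gm5424 are entries of a shared locus and are counted separately here, with most of the signal under Gm5424. The set also held 0.95 for Amacr, 0.79 for Akr1d1, 0.94 for Slc22a28, 0.76 for Aifm2 and 1.42 for Npm3. It was negative at -2.35 for Cyp26b1, -1.12 for Abcc4, -0.56 for Slc1a5, -1.89 for Slc25a25, -1.31 for Slc38a3, -0.63 for Ugdh, -1.04 for Ndrg1 and -1.22 for Spon1.

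For the other 35 genes the difference was called with all libraries and lost in at least 1 setting. Among the single libraries, the first wild-type GW4064 library cost most of these calls (26 genes), then the first knockout vehicle library (20), the third wild-type vehicle library (19) and the third knockout GW4064 library (16). Leaving out the first or the second wild-type vehicle library cost 14 and 10, the second or the third wild-type GW4064 library 14 and 7, the second or the third knockout vehicle library 8 and 12, and the first or the second knockout GW4064 library 7 and 6. The fat score cost 31 and the replicate block 16.

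In these genes the difference was positive at 1.45 for Serpinc1, 1.84 for Etnppl, 1.48 for Mkln1os, 2.17 for Cyp24a1, 0.72 for Slc2a2, 0.91 for Slc25a48, 0.41 for Sgms1 and 0.36 for Sgms2. It was positive too at 0.36 for Etnk1, 0.56 for Asl, 0.90 for Cdo1, 0.46 for Phyh, 1.16 for Slc22a26, 0.87 for Hbegf, 0.66 for Kif20b, 0.42 for Lama1 and 0.29 for Csf1r. Negative values were -0.44 for Fgfr1, -0.81 for Slc2a5, -1.37 for Slc13a2, -0.60 for Slc16a10, -0.70 for Slc16a1, -0.55 for Slc7a8, -0.43 for Slc25a10, -1.30 for G0s2, -1.30 for Pck1 and -0.62 for Acox2. The remaining negative values were -0.39 for Tkt, -1.19 for Cryab, -1.48 for Nupr1, -1.15 for Tsc22d1, -1.12 for Prob1, -1.01 for Tnn, -1.86 for Cck and -1.01 for Col8a1. Slc16a1 differs from the rest in that its value in the knockout, and not in wild type, was the larger change, 0.75 against 0.05.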

How the results depend on the processing

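The count of 702 genes called in wild type lay between 578 and 973 under the 12 alternatives that were not a block, the fat score or a left-out library. With the fat score in the model it was 436, and the count of 467 genes whose response differed between genotypes became 208. Leaving out each library in turn gave 341 to 779 calls in wild type and 220 to 544 differences. The labels number the libraries of every group 1 to 3 and state no pairing. Same-numbered wild-type vehicle and GW4064 libraries deviated from their group means with correlations of 0.002, 0.058 and 0.074, and differently numbered ones with -0.093 to 0.036. These small correlations do not decide whether a pairing exists, and the main fit treats the libraries as unpaired. With the replicate block 499 genes were called in wild type and the difference was called for 257. The block uses up degrees of freedom, and lost calls are not read as weaker effects. Restricting the fit to the 6 wild-type libraries gave 791 calls, 571 of them shared. The cause of these shifts was not tested. Of 109 named genes 102 were called, 84 of them in every setting in which they were tested. Over 2825 gene and setting pairs besides the reported values, 2738 kept their side of the threshold, 85 lost the call, 2 gained it and none changed direction. Median-of-ratios scaling moved the split of the differences from 251 positive and 216 negative to 357 and 144. Of genes under a mean of 2 TPM 1.07% were called, against 9.38% at 50 to 250 TPM; the part of depth in this was not tested.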
